A study of Sus scrofa with 6 samples.

Results

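The genes described here encode 5 transcription factors, TFAP2B, RORA, ZFP42, NFIA and MEIS1, in keratinocyte clones of the pig (Sus scrofa). They were chosen because their deposited values differed between corneal and conjunctival clones, so their tissue differences are given as descriptions with no test. The array annotation gives their gene IDs as 399526 for TFAP2B, 100156637 for RORA, 100627512 for ZFP42, 100523676 for NFIA and 100738093 for MEIS1. They are 5 of 6765 genes with a probe set that carries their symbol alone, and 9 of the 23999 probe sets measured belong to them. Each gene is represented by its brightest probe set, by the mean of the 6 arrays. By that mean, all 5 of these lay at or above the median level of all probe sets (4.45). All 4 dimmer probe sets of the same genes lay below it. The mean takes in both tissues, and the corneal mean of TFAP2B (4.31) and the conjunctival mean of RORA (4.12) lay under that level.

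The study compared 3 clones from the central cornea with 3 from the conjunctiva, and each clone was grown from 1 cell on irradiated 3T3-J2 mouse feeder cells. The biopsies, taken 6 mm from the limbus, came from white domestic pigs given as AP1 and AP6, and the labels do not say which of these 2 animals gave which clone. The labels state no genotype, age or treatment, although the array run files name an irradiation time course as their project. Total RNA of each clone was hybridised to 1 Affymetrix porcine array. Values are log2 robust multi-array average (RMA) levels, on which a step of 1 is a doubling, and every difference is conjunctiva minus cornea. On an array of pooled cells, fewer cells of a type and less RNA per cell cannot be told apart.

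Transcription factors bind DNA and set which genes a cell transcribes, and each epithelium of the eye surface is known for its own combination of them. TFAP2B is a member of the AP-2 family, which binds GC-rich sites and acts in neural crest and surface ectoderm. RORA is an orphan nuclear receptor that binds single half-sites and, opposed by the REV-ERB receptors, drives the clock gene ARNTL. ZFP42, also called REX1, is a zinc finger protein related to YY1 and is widely used as a marker of pluripotent stem cells. NFIA belongs to the nuclear factor I family, which binds palindromic sites as dimers. MEIS1 is a homeobox protein of the TALE class that binds DNA together with PBX and HOX proteins and acts in the developing eye.

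The cells were checked against fixed marker lists. Of 7 measured keratinocyte markers, DSP, SFN, PERP and CDH1, which encode parts or regulators of epithelial junctions and a cell cycle checkpoint protein, lay between 10.58 and 13.50 over the 6 clones, while the basal integrin gene ITGA6 was dim (3.39 to 3.90) and the cadherin gene CDH3 ran from 4.40 to 5.51. The hemidesmosome collagen gene COL17A1 ran from 6.13 to 9.62 and differed by -1.20 (SE 0.70), or by -0.38 without cornea 1. The defining genes of the keratinocyte (KRT5, KRT14 and TP63), of the cornea (PAX6, KRT12 and KRT3) and of the conjunctiva (KRT13, KRT4 and MUC5AC) were not analysed here, since none is the sole symbol of a probe set. As a mean over each list, keratinocyte markers ranged from 9.03 to 9.88 in cornea and from 9.13 to 9.30 in conjunctiva. Fibroblast and keratocyte markers (8 of 12 measured) ranged from 6.47 to 6.89 and from 6.61 to 7.06. That mean hides a wide spread of genes over the 6 clones. VIM (10.6 to 11.85) and THY1 (9.66 to 12.24) were bright. COL1A2 (6.40 to 7.81), DCN (5.61 to 8.48) and PDGFRB (6.47 to 6.91) were lower but above the median level of all probe sets in every clone. COL3A1 and PRRX1 were lower still, and LUM was the lowest (2.83 to 2.95). Melanocyte markers (5 of 8) ranged from 3.86 to 4.21 and from 3.85 to 4.09. Leukocyte markers (5 of 7) ranged from 3.68 to 3.87 and from 3.69 to 3.83, and endothelial markers (5 of 5) from 4.49 to 4.70 and from 4.50 to 4.81. The endothelial mean hides PECAM1, which was brighter (7.11 to 8.22) than the rest (2.94 to 5.33). PECAM1 differed by 0.56 (SE 0.20) with a narrow overlap of the tissues and did not pass limma's threshold. In each of these 5 lists the ranges of both tissues overlapped. Of the markers of each tissue, TKT and CLU (2 of 6 corneal) and KRT19, MUC4, TFF1 and TFF3 (4 of 9 conjunctival) were measured, and none passed limma's threshold. The conjunctival mucin gene MUC4 was the one without overlap, at 2.93, 2.96 and 3.02 in cornea and 3.44, 5.29 and 3.21 in conjunctiva (difference 1.01, SE 0.52, and 0.35 without conjunctiva 2). MUC4 was dim in all clones but conjunctiva 2, and the gap between its tissues was 0.18. The other 5 overlapped between the tissues, so the measured markers did not part the clones by tissue beyond MUC4. RNA quality, read as the signal of the actin control at its 3' end minus that at its 5' end, overlapped as well (0.461 to 1.07 in cornea and 0.553 to 1.11 in conjunctiva). The same measure for GAPDH ran from 0.0583 to 0.447 in cornea and from 0.407 to 0.697 in conjunctiva, higher in conjunctiva on average (0.52 against 0.296) with a narrow overlap, and its part in the differences below was not tested.

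TFAP2B, NFIA and MEIS1 were higher in conjunctival clones, and RORA and ZFP42 were higher in corneal clones. The sizes ran from a 1.28-fold difference for MEIS1 to a 6.42-fold difference for ZFP42, and 2 of the 5 genes, RORA and ZFP42, differed by at least 2-fold, as did 0.887% of the 6765 genes. For 4 of the 5, all but MEIS1, the 3 values of one tissue lay wholly above the 3 of the other, which was also so for 6.71% of the 6765 genes. The members were picked from this contrast, so nothing is read from either count. Over the whole table, limma called 0 of 23999 probe sets at an adjusted p of 0.05 (0%), with 648 at an unadjusted p under 0.05. The unmoderated test also called 0, with 750 unadjusted, and limma with the clone number as a block called 0, with 1204 unadjusted. That block was chosen because same-numbered clones deviated together in these data, so its unadjusted count may be raised by the choice. The n of 3 per tissue counts clones and not animals. The labels name 2 pigs without saying which gave which clone, and they do not state that the cultures were separate. Each p-value therefore rests on variation among the 6 clones, part of which may be technical. Variation among pigs could not be estimated.

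**Figure D1:**
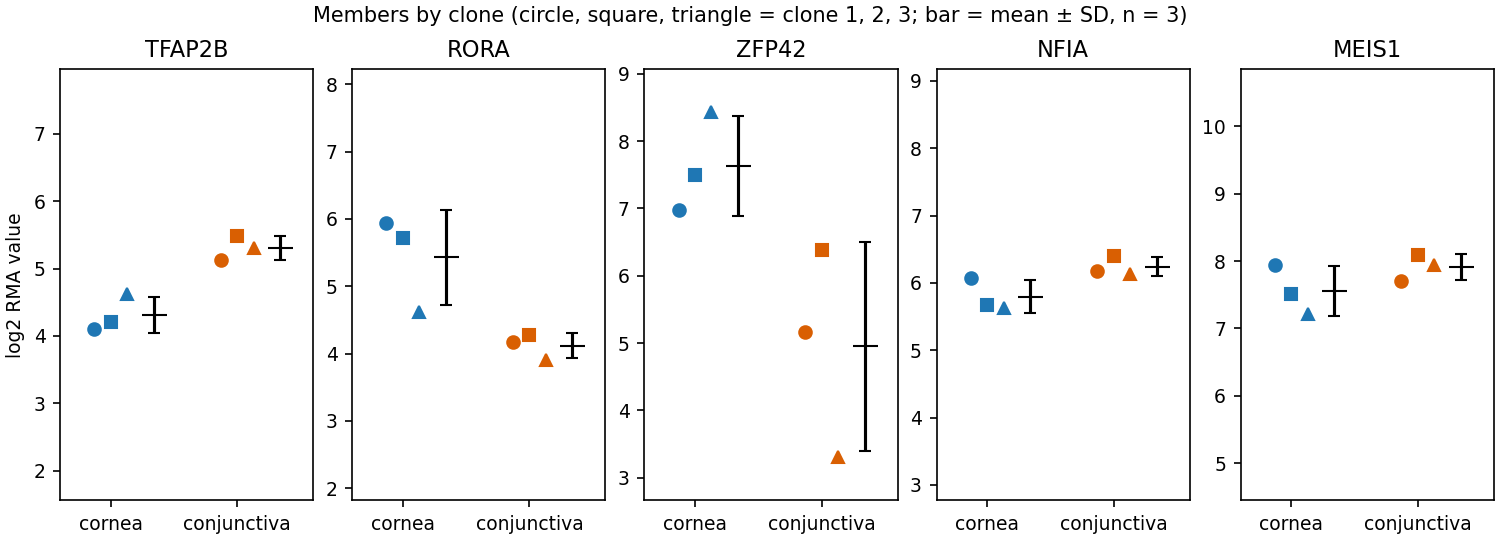
Log2 RMA value of the brightest probe set of each gene in each clone, with corneal clones in blue and conjunctival clones in orange, symbols for clone numbers 1 to 3, and the mean ± SD of each tissue (n = 3) beside them. All panels span the same height in log2 units. ZFP42 has the widest spread, from 8.43 in cornea 3 to 3.30 in conjunctiva 3, and MEIS1 is the gene whose tissues overlap.

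ZFP42 showed the widest difference. The corneal clones 1, 2 and 3 stood at 6.97, 7.49 and 8.43, and the conjunctival clones at 5.17, 6.39 and 3.30. Every corneal clone was above every conjunctival clone, with a gap of 0.59 between cornea 1 and conjunctiva 2, the nearest 2 clones across the tissues. The tissue means were 7.63 ± 0.74 and 4.95 ± 1.55 (SD, n = 3), a difference of -2.68 (SE 0.77). By the size of this difference ZFP42 ranked 1 of the 6765 genes.

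The conjunctival clones themselves differed in ZFP42 by more than the tissues did. Their range was 3.08 against 1.46 among corneal clones. From their tissue mean, conjunctiva 3 deviated by -1.65 and conjunctiva 2 by 1.43. In brightness, ZFP42 stood at the 92.8th percentile of all probe sets in cornea 3 and at the 17.9th in conjunctiva 3, where the signal was among the dim probe sets of the array. The difference was -1.86 without conjunctiva 3 and -3.40 without conjunctiva 2.

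RORA, the nuclear receptor, was the other gene with higher corneal values. The corneal clones stood at 5.95, 5.72 and 4.62, and the conjunctival clones at 4.17, 4.27 and 3.91. Corneal clones 1 and 2 were well above all others, whereas cornea 3 lay only 0.35 above conjunctiva 2. The means were 5.43 ± 0.71 in cornea and 4.12 ± 0.19 in conjunctiva, a difference of -1.31 (SE 0.34) or 2.48-fold. The spread lay mainly on the corneal side, with a range of 1.32 there and 0.36 in conjunctiva. Without cornea 3 the difference was -1.71, and without cornea 1 it was -1.05. RORA ranked 30 of the 6765 genes by size.

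TFAP2B, the AP-2 factor, was higher in the conjunctiva with little spread on either side. The corneal clones stood at 4.11, 4.21 and 4.62 and the conjunctival clones at 5.13, 5.48 and 5.30. The lowest conjunctival clone was 0.51 above the highest corneal clone, a gap about as wide as the corneal range of 0.51 and wider than the conjunctival range of 0.35. The difference was 0.99 (SE 0.17), or 1.99-fold, and lay between 0.89 and 1.14 when 1 clone at a time was left out. Tissue took up 87.6% of the variance of TFAP2B between clones, against 70.6% for RORA, 65.5% for NFIA, 64.6% for ZFP42 and 35.9% for MEIS1. The median over the 6765 genes was 9.83%. These shares describe the contrast that the genes were chosen from.

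The dimmer TFAP2B probe set did not show this separation. It stood at 3.17, 3.01 and 3.17 in cornea and at 3.03, 3.20 and 3.37 in conjunctiva, a difference of 0.09 (SE 0.13). Its values lay between the 8.38th and the 20.7th percentile of their arrays, so the probe set was dim in all clones and the tissues overlapped. Averaged over both probe sets, the TFAP2B difference was 0.54.

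NFIA, of the nuclear factor I family, differed by less. The corneal clones stood at 6.07, 5.67 and 5.63 and the conjunctival clones at 6.18, 6.40 and 6.14. The tissues did not overlap, but cornea 1 lay only 0.07 below conjunctiva 3. The means were 5.79 ± 0.25 and 6.24 ± 0.14, a difference of 0.45 (SE 0.15) or 1.37-fold, and the difference ran from 0.37 without cornea 3 to 0.59 without cornea 1. By size NFIA ranked 355 of the 6765 genes.

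NFIA had a pair of dimmer probe sets, and both overlapped between the tissues. One stood at 4.54, 4.30 and 4.38 in cornea and at 4.68, 4.27 and 4.38 in conjunctiva, a difference of 0.04 (SE 0.14). The other stood at 4.42, 4.26 and 4.30 in cornea and at 4.52, 4.42 and 4.52 in conjunctiva, a difference of 0.16 (SE 0.10), with conjunctiva 2 just under cornea 1. Among the corneal clones, cornea 1 was the highest on all 3 NFIA probe sets. Among the conjunctival clones they did not share an order: conjunctiva 2 was the highest on the brightest probe set and the lowest on both others. The mean over the 3 probe sets differed by 0.22.

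MEIS1, the homeobox gene, overlapped between the tissues. The corneal clones stood at 7.95, 7.52 and 7.21 and the conjunctival clones at 7.71, 8.09 and 7.95. Cornea 1 was above conjunctiva 1 and close to conjunctiva 3, while corneal clones 2 and 3 were below all conjunctival clones. The means were 7.56 ± 0.37 and 7.92 ± 0.19, a difference of 0.36 (SE 0.21), which was smaller than the corneal SD. It was 0.19 without cornea 3 and 0.55 without cornea 1. By size MEIS1 ranked 612 of the 6765 genes.

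The dimmer MEIS1 probe set stood at 4.78, 4.11 and 3.86 in cornea and at 4.16, 4.50 and 4.39 in conjunctiva. Its tissue difference was 0.10 (SE 0.24), and -0.10 without cornea 3. The order of the clones within each tissue was the same on both MEIS1 probe sets, with cornea 1 above 2 above 3, and conjunctiva 2 above 3 above 1. On this probe set cornea 1 was the highest of all 6 clones.

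**Figure D2:**
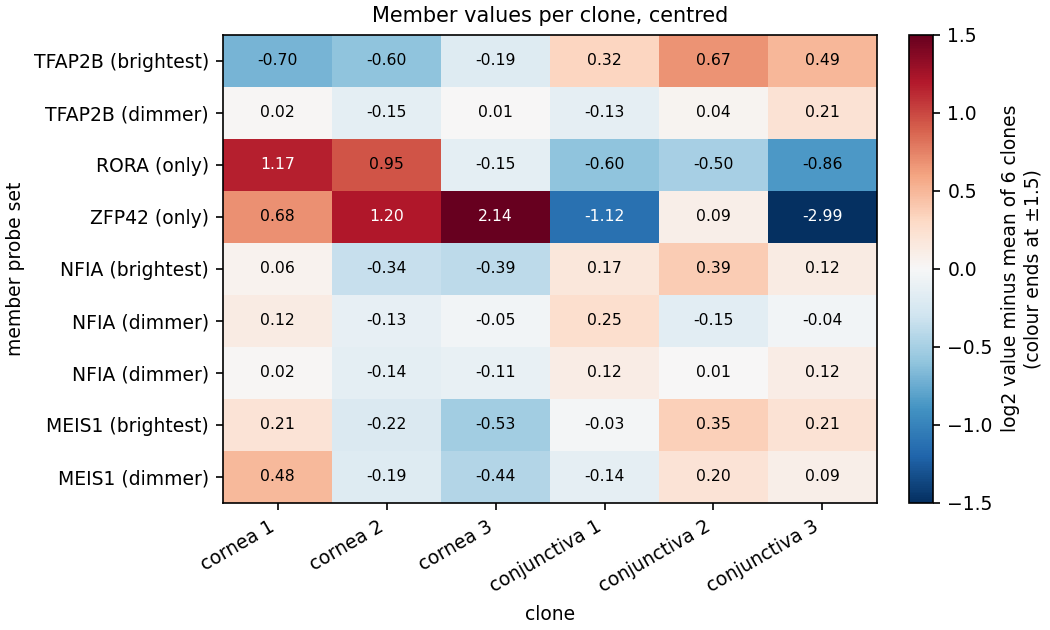
Log2 value of each of the 9 probe sets of these genes (rows) in each clone (columns), after the mean of the 6 clones was subtracted, with red above and blue below that mean and the value written in each cell. The brightest TFAP2B probe set is negative in all corneal and positive in all conjunctival clones, and both MEIS1 probe sets are highest within the cornea in clone 1 (0.21 and 0.48).

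**Figure D3:**
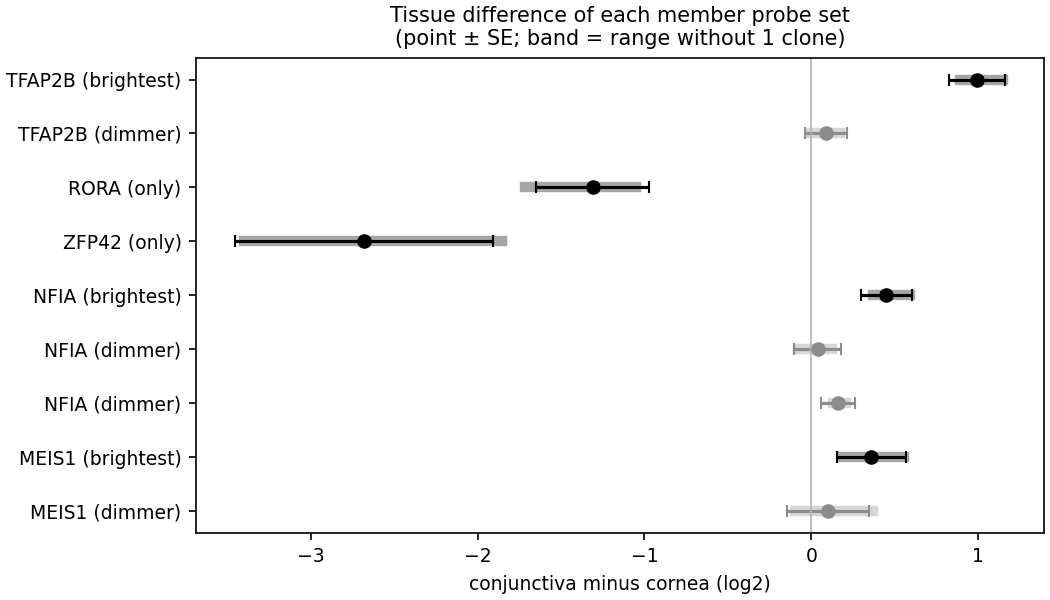
Conjunctiva minus cornea on the log2 scale for each of the 9 probe sets, with the SE from limma as a bar and the range of values without 1 clone as a shaded band. Black marks the only or brightest probe set of a gene and grey the dimmer ones. The dimmer probe sets lie between 0.04 and 0.16, and the black points between -2.68 and 0.99.

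All 9 probe sets had the sign of their gene's brightest one. In the dimmer probe sets the sizes were much smaller, from 0.04 to 0.16, and leaving out 1 clone turned the sign of the dimmer MEIS1 probe set, of the NFIA probe set with the difference of 0.04 (-0.08 without conjunctiva 1) and of the dimmer TFAP2B probe set (-0.00017 without conjunctiva 3). For RORA and ZFP42 there was 1 probe set each, so their values had no second measurement.

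The spread of the clones within a tissue was not shared by all 5 genes. In the cornea, clone 1 was the highest and clone 3 the lowest for RORA, NFIA and MEIS1, whereas for ZFP42 and TFAP2B clone 3 was the highest and clone 1 the lowest. In the conjunctiva, clone 2 was the highest of its tissue for each of the 5 genes on its brightest probe set. Clone 3 was the lowest there for RORA, NFIA and ZFP42, and clone 1 for TFAP2B and MEIS1.

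NFIA and MEIS1 had the most alike profiles of the 10 pairs these genes form. The likeness of a pair was measured as the root mean square difference of their log2 profiles over the 6 clones, each centred on its own mean, so that a smaller value is more alike. It was 0.13 for NFIA with MEIS1, 0.39 for TFAP2B with NFIA and 0.48 for TFAP2B with MEIS1. For RORA with ZFP42, the pair higher in cornea, it was 1.34. When each tissue's mean was removed first, NFIA and MEIS1 were again the closest pair (0.122), and RORA with MEIS1 stood at 0.279. All profiles share the same 6 arrays, and genes of small spread are close by this measure.

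The same measure over all 6765 genes gave the 3 nearest genes to each. Nearest to TFAP2B were GLIPR2 (0.211), the cyclin-dependent kinase inhibitor gene CDKN2D (0.249) and the chromatin remodelling gene RSF1 (0.252), which differed between the tissues by 0.66, 0.67 and 0.76. Nearest to RORA were CD59, which encodes an inhibitor of complement (0.258), the ribonuclease gene RNASET2 (0.260) and the orphan receptor gene GPR160 (0.317), which differed by -1.01, -1.15 and -1.10. For ZFP42 the nearest genes were far off by comparison, with the exchange factor gene ARHGEF6 at 1.06, the actin-severing gene SCIN at 1.07 and LYPLAL1 at 1.14. ARHGEF6 differed by -2.41, and its corneal clones stood at 5.89, 7.63 and 7.93 against 4.77, 4.57 and 4.89 in conjunctiva, where it did not show the low value of conjunctiva 3 seen for ZFP42.

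TXNDC15, which encodes a thioredoxin domain protein, was among the 3 nearest genes of both NFIA (0.0943) and MEIS1 (0.115). The others nearest to NFIA were LOC396905 (0.0985) and MESDC2 (0.104), and to MEIS1 the membrane protein gene TMEM117 (0.095) and FPGT (0.124). Since the likeness takes in the tissue contrast by which the members were chosen, these neighbours are a description of the arrays.

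**Figure D4:**
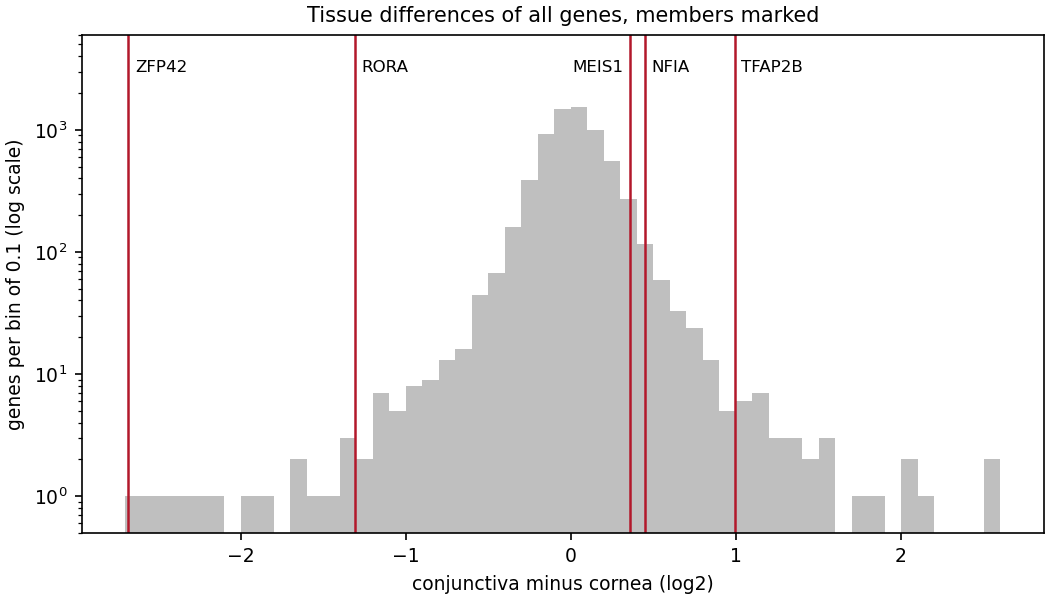
Number of genes (log axis) by their conjunctiva minus cornea difference in bins of 0.1 log2 units, over 6765 genes by their brightest probe set, with red lines at the 5 transcription factor genes. ZFP42 lies at the far left at -2.68, RORA at -1.31 and TFAP2B at 0.99, while NFIA and MEIS1 lie on the right flank of the main peak.

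Over the whole table, deviations from the tissue mean were positively correlated between clones of the same number (r from 0.169 to 0.354). The labels do not give this pairing, so the differences were also taken by number as a description only. For clone numbers 1, 2 and 3 the ZFP42 difference was -1.81, -1.11 and -5.13, and the RORA difference -1.77, -1.45 and -0.71. For TFAP2B it was 1.02, 1.27 and 0.68, and for NFIA 0.11, 0.73 and 0.51. In number 3 the ZFP42 difference was the largest of its 3 and the RORA difference the smallest. The sign of these 4 genes is fixed by tissues that do not overlap. MEIS1 differed by -0.23, 0.57 and 0.74, so number 1 went the other way.

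The arrays were washed on 2 fluidics stations, station 1 with cornea 1, conjunctiva 2 and conjunctiva 3, and station 2 with cornea 2, cornea 3 and conjunctiva 1. Clone number 1 is thus the only one with its corneal array on station 1. What sets its differences by number apart, as for MEIS1, cannot be told apart from station. Within station 1 and station 2 the ZFP42 difference was -2.13 and -2.79, and the RORA difference -1.85 and -0.996. The TFAP2B difference was 1.28 and 0.72, the NFIA difference 0.20 and 0.53 and the MEIS1 difference 0.07 and 0.35. Each station held a lone array of one tissue, and for the genes without overlap the sign on a station is fixed.

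The relatives of these genes and their pathway partners were taken from 7 lists, of which 38 of 107 symbols had a probe set of their own. Some symbols are alternative names of the same gene. Of the ROR and REV-ERB receptors, the relatives of RORA and its opponents, 0 of 4 symbols had one, so none is described. By limma 0 of the 38 genes passed, 14 were higher and 24 lower in conjunctiva, and 2, or 5.3%, had tissues that did not overlap, against 6.71% of the 6765 genes. Their adjusted p was 0.9999 throughout, and no listed gene differed by 2-fold or more (0 of 38). For comparison, 53.5% of all 6765 genes were on the conjunctival side, and the median of their differences was 0.01.

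**Figure D5:**
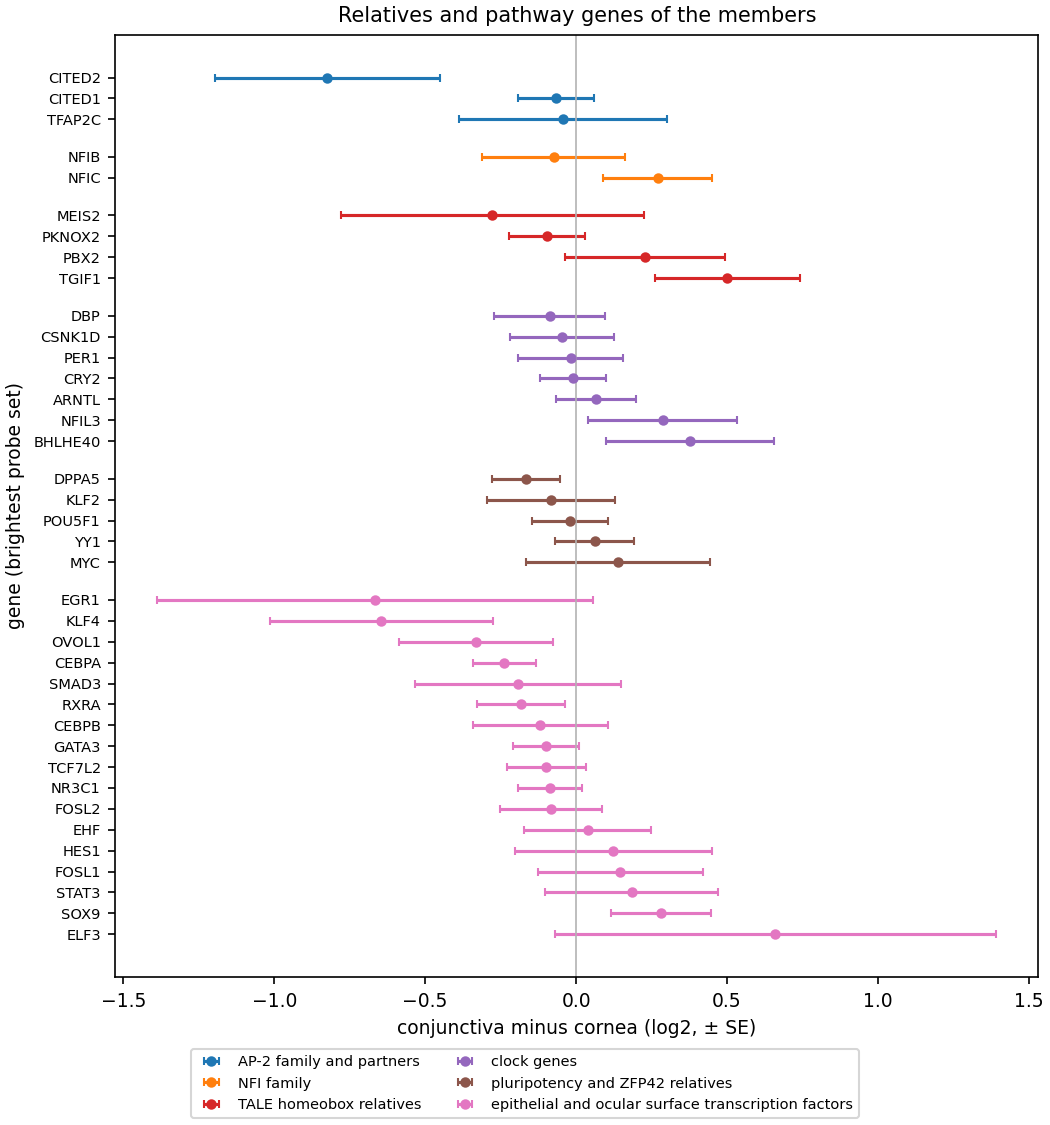
Conjunctiva minus cornea on the log2 scale, with the SE from limma, for the 38 measured relatives and pathway genes, coloured by list. CITED2 at -0.82, KLF4 at -0.64 and TGIF1 at 0.50 are among the points farther from 0, and no gene passed the threshold.

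In the AP-2 family, TFAP2C and the co-activator genes CITED1 and CITED2 were measured, and none passed. TFAP2C, the relative of TFAP2B, was nearly equal in the tissues, at 5.92, 6.45 and 5.20 in cornea and 6.07, 6.02 and 5.34 in conjunctiva (difference -0.04, SE 0.35, and from -0.37 to 0.25 without 1 clone). CITED2, which encodes a co-activator of AP-2 factors, stood at 9.55, 9.73 and 8.71 in cornea and at 8.48, 7.92 and 9.12 in conjunctiva. Its difference of -0.82 (SE 0.37) had the opposite sign to that of TFAP2B, with conjunctiva 3 inside the corneal range, and was -0.53 without conjunctiva 2. CITED1 was dim in all clones (3.07 to 3.46). The median of the 3 genes was -0.07.

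In the nuclear factor I family, NFIC differed by 0.27 (SE 0.18), and by 0.12 without conjunctiva 3. The NFIB difference was -0.07 (SE 0.24), and leaving out conjunctiva 3 or conjunctiva 1 gave -0.32 or 0.14. NFIC stood at 5.30, 5.72 and 5.51 in cornea and at 5.73, 5.52 and 6.08 in conjunctiva, and NFIB at 4.90, 5.03 and 4.73 and at 4.38, 4.76 and 5.30. Neither passed, the tissues overlapped in both, and the other probe set of each had the opposite sign.

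Of the TALE homeobox relatives of MEIS1, 4 of 11 symbols were measured and none passed. TGIF1, which encodes a repressor of this class, was the one without overlap, at 7.45, 8.29 and 8.30 in cornea and 8.42, 8.65 and 8.48 in conjunctiva. Its difference of 0.50 (SE 0.24) was 0.22 without cornea 1, the low corneal clone. MEIS2 stood at 6.50, 6.60 and 6.84 in cornea and spread from 5.38 to 7.54 in conjunctiva, a difference of -0.28 (SE 0.50) that was 0.22 without conjunctiva 1. PBX2, a DNA-binding partner of MEIS1, differed by 0.23 (SE 0.26), with 0.04 without cornea 1 and 0.50 without cornea 2, and PKNOX2 was dim, at a difference of -0.10. The median of the 4 was 0.07.

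The pathway of RORA was read through the clock genes. Of these, 7 were measured out of 21 listed symbols, which include alternative names such as BMAL1 for ARNTL. Of the 7 genes, 3 were higher and 4 lower in conjunctiva. Their median difference was -0.01 and none passed the threshold. ARNTL, the clock gene that RORA is known to drive, stood at 6.20, 6.62 and 6.39 in cornea and at 6.48, 6.39 and 6.54 in conjunctiva. Its tissues overlapped, and the difference of 0.07 (SE 0.13) was within its error and was -0.03 without cornea 1. BHLHE40, which encodes a repressor of the clock, differed by 0.38 (SE 0.28), the repressor gene NFIL3 by 0.29 (SE 0.25) and DBP, a clock output gene, by -0.09 (SE 0.19, and 0.06 without conjunctiva 1). BHLHE40 differed by 0.16 without cornea 3, and NFIL3 by 0.10 without conjunctiva 2.

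Of the pluripotency genes and relatives of ZFP42, 5 of 21 were measured, 2 higher and 3 lower in conjunctiva, with a median of -0.02 and none past the threshold. YY1, the ubiquitous zinc finger relative of ZFP42, ran from 9.15 to 9.48 over the 6 clones and differed by 0.06 (SE 0.13, and -0.02 without cornea 3). Its other probe set had the opposite sign. POU5F1, a core pluripotency factor gene named after its values were seen, ran from 3.65 to 3.95 and was dim in all clones. DPPA5 was dim as well (3.31 to 3.66, difference -0.17, SE 0.11), as was KLF2, which differed by -0.08 (SE 0.21, and 0.11 without conjunctiva 1). MYC differed by 0.14 (SE 0.30, and -0.21 without cornea 3). The 5 differences ran from -0.17 to 0.14, and SOX2 and NANOG were not analysed here.

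Of 38 epithelial and ocular surface transcription factors, 17 were measured. With 6 higher and 11 lower in conjunctiva, their median was -0.10, and none passed. CEBPA, a differentiation factor gene, had the smallest unadjusted p (0.0582) and was the one without overlap, at 4.45, 4.60 and 4.39 in cornea and 4.22, 4.22 and 4.29 in conjunctiva (difference -0.24, SE 0.10). KLF4, which acts in the barrier and surface layers, differed by -0.64 (SE 0.37), and by -0.34 without conjunctiva 2. SOX9, a progenitor factor gene, differed by 0.28 (SE 0.17, and 0.11 without conjunctiva 2), and OVOL1 by -0.33 (SE 0.26, and -0.12 without cornea 2), with its other probe set of opposite sign.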

How the data were processed

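Per the submitters' processing notes, the authors made the deposited log2 values with RMA. This method corrects background, brings the probe signals of all arrays to 1 distribution and summarises them per probe set, which hides any shift in the total RNA of a cell. The version of RMA was not given in the sources used here. Array run settings (fluidics station and module, kept here as other values, with no unit) came from the deposited run files. After removal of 124 control probe sets, all 23999 others were tested, dim ones included. Array medians lay between 4.40 and 4.48, and with arrays it is their number that limits the precision.

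The annotation table of the array gave the symbols: 10069 probe sets had 1 symbol, 198 several and 13732 none listed. Of the members' gene IDs, 4 of 5 were in the RefSeq genes of Sscrofa11.1 (all but that of MEIS1, matched by symbol). No sequences or coordinates were used here.

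The comparison used limma 3.58.1 in R 4.3.3 (lmFit, eBayes without trend or robust options, two-sided, Benjamini-Hochberg adjustment over all probe sets, threshold 0.05), a script tested on simulated data. The members and lists were chosen with earlier results of these data known. Named were the 5 members with all their probe sets and all measured AP-2, nuclear factor I and TALE relatives (no ROR or REV-ERB relative was measured). Also named were up to 4 genes by unadjusted p of each other list, and the 3 genes nearest to each member. Same-numbered clones of the 2 tissues deviated together from their tissue means, with r = 0.354 for number 1, 0.169 for number 2 and 0.349 for number 3 (across probe sets, which are not independent). Clones of unlike number gave r from -0.382 to 0.11. The deviations of a tissue cancel out by construction, so these r values are tied to one another and are no test of a shared origin. The labels number the clones without saying what a number shares, so this pairing comes from the data, and the number was fitted as a block. Each of the 4 module numbers held arrays of 1 tissue, so module and tissue cannot be told apart. Alternatives were the clone number or station as a block, each station alone, array median centring, a level filter, 1 or all probe sets per gene, other limma options and leaving out each clone.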

Additional observations from a re-analysis of the deposited data

How the results depend on the processing

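Limma passed 0 probe sets in 13 of 15 alternatives, with the replicate block among them (0, smallest adjusted p 0.108), and 0 in each fit without 1 clone (range 0 to 0). It was 1 when 1 probe set per gene was tested, a fit with fewer tests, and 2 with trend and robust options. The cause was not tested in either case. None of these calls was one of the 5 transcription factors. For TFAP2B, RORA, ZFP42 and NFIA, whose tissues do not overlap, no split or omission of clones can turn the sign, so their signs are no measure of stability. MEIS1, whose tissues overlap, stayed positive in its 12 alternatives (0.07 to 0.55). Without 1 clone the differences ran from 0.89 to 1.14 for TFAP2B, -1.71 to -1.05 for RORA, -3.40 to -1.86 for ZFP42, 0.37 to 0.59 for NFIA and 0.19 to 0.55 for MEIS1. The block on clone number changed no call and, with both tissues in every number, leaves the differences as they are. Within station 1 the differences moved by more than the spread between clones for TFAP2B (1.28), RORA (-1.85) and NFIA (0.20), and within station 2 for TFAP2B (0.72). With all probe sets averaged, they moved for TFAP2B (0.54) and NFIA (0.22), whose added probe sets are dimmer than their brightest one. The fits within a station have 3 arrays, of which the lone one is taken to vary as much as the rest, and do not bear on stability. Array median centring shifted the median of all probe sets by under 0.1 and turned no sign among the 5. The planned search of promoters for binding motifs was not run, since no sequences were used here. Whether low signal limits the dimmer probe sets was not tested. All 4 lie under the median level (4.447), those of NFIA only just, at means of 4.425 and 4.407. The lower tissue means of TFAP2B (4.31 in cornea) and RORA (4.12 in conjunctiva) lie under that level as well.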
